A study of Homo sapiens with 4 samples.

Results

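The 9 genes described here encode transcription factors of luminal or epithelial fate: SPDEF, EHF and ELF3 (ETS factors), FOXA1 (forkhead), GATA3, the steroid receptors ESR1 and PGR, XBP1, and GRHL2 (Grainyhead). They were taken by symbol, with the brightest probe set of each gene, and all 9 were among the 18417 genes measured. ESR1 had 2 probe sets with its symbol and each of the others had 1. MDA-MB-231, a human breast cancer line known as basal-like and mesenchymal, with little or no oestrogen and progesterone receptor, was grown in DMEM with 10% serum, penicillin and streptomycin. Cells received either a plasmid encoding the forkhead factor FOXC1 or the empty vector by lipid transfection, and 100 ng of total RNA per sample went onto Affymetrix whole-transcript arrays, 2 per group and 4 in all. The labels call the arrays of a group biological replicates. The labels state neither the time from transfection to harvest nor whether cells were selected or cloned. The transcript of FOXC1 itself was not analysed here, and the labels could therefore not be set against it.

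In luminal breast epithelium FOXA1 opens chromatin for the oestrogen receptor ESR1, and GATA3 works with both, while PGR is a classical target of ESR1. SPDEF acts in luminal and secretory cells. GRHL2 and the epithelial ETS factors ELF3 and EHF maintain genes of junctions and the epithelial surface, and XBP1, activated by splicing of its RNA under endoplasmic reticulum stress, drives genes of protein folding and secretion. FOXC1 is known for the basal-like type of breast cancer, and the comparison asks how transcripts differ between FOXC1 and vector cells.

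In FOXC1 cells 4 of the 9 factors fell, SPDEF by the widest margin, then EHF and FOXA1 by similar amounts and GATA3 slightly, and 0 rose. At an adjusted p of 0.05 in limma, 15.5% of all genes were called lower and 15.9% higher, 31.4% in all. At an unadjusted p of 0.05 the counts over the 9 were also 4 and 0. SPDEF, EHF and FOXA1 fell at least 2-fold, which 0.690% of all genes did with a call. Folds and log2 differences set FOXC1 cells against vector cells after 16 was added to the linear PLIER signal and log2 taken. The median log2 difference of the 9 was -0.07 and that of all genes 0.03. In bulk RNA fewer cells with a transcript and less of it per cell cannot be told apart.

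SPDEF read 1207 and 1221 on the vector arrays and 224.05 and 225 on the FOXC1 arrays. Both FOXC1 arrays lay far below both vector arrays, with little spread inside either group. The fall was 5.11-fold (log2 -2.35 ± 0.07 SE, adjusted p = 2.31e-16). The FOXC1 mean was 18.5% of the vector mean in linear signal. FOXA1, the pioneer factor of the oestrogen receptor, read 539.7 and 556 in vector cells and 199 and 212 in FOXC1 cells. The groups were again apart, and the fall was 2.55-fold (log2 -1.35 ± 0.09 SE, adjusted p = 6.47e-11). EHF read 187 and 189 in vector cells and 43.8 and 90.4 in FOXC1 cells. Its FOXC1 arrays differed from each other by about as much, on the log2 scale, as the brighter of them differed from vector, so its fall of 2.56-fold had a wider error (log2 -1.36 ± 0.17 SE, adjusted p = 2.91e-06). Without FOXC1 replicate 1 it was 1.92-fold, and without FOXC1 replicate 2 it was 3.41-fold, both past the threshold.

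GATA3 read 865 and 931 in vector cells and 796 and 794 in FOXC1 cells. The groups did not overlap, but the fall was 1.13-fold (log2 -0.17 ± 0.06 SE, adjusted p = 0.0401). This call was lost without vector replicate 1 (log2 -0.22, adjusted p = 0.067), without vector replicate 2 (log2 -0.12, adjusted p = 0.42) and without FOXC1 replicate 2 (log2 -0.17, adjusted p = 0.0584). It was also lost with quantile normalization (adjusted p = 0.068), among other settings.

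**Figure D1:**
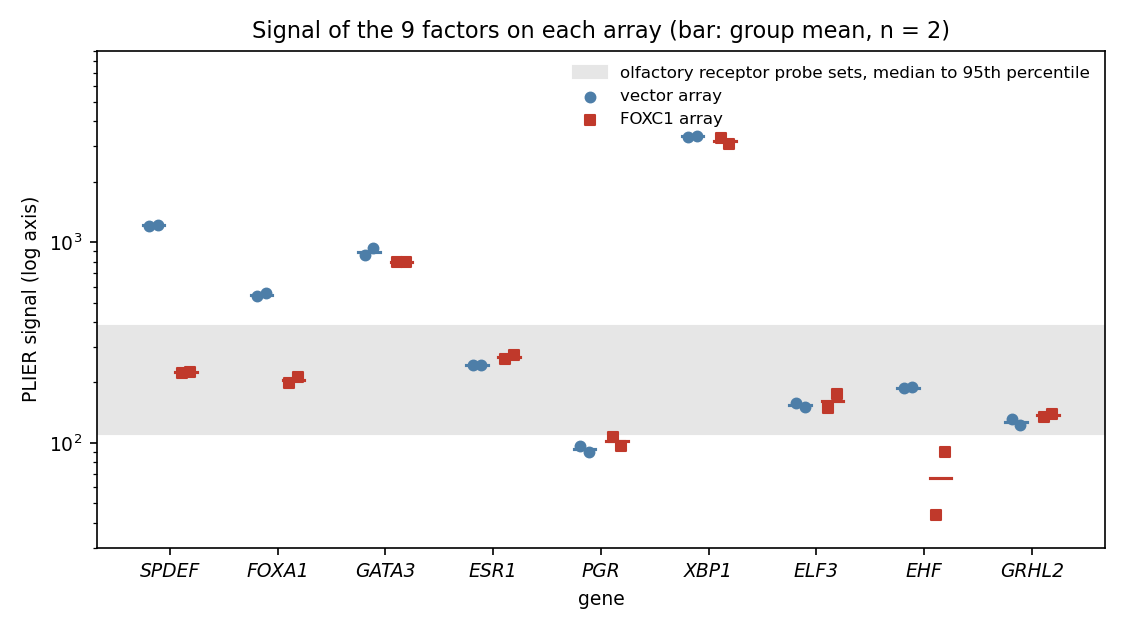
PLIER signal on a log axis for each factor on the 2 vector arrays (circles) and 2 FOXC1 arrays (squares), with group means as bars; the grey band spans the median to the 95th percentile of 360 olfactory receptor probe sets. SPDEF and FOXA1 lay above the band in vector cells and inside it in FOXC1 cells, and EHF went from inside the band to below it.

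The stretches of 250 bases before the annotated starts of the 3 genes that fell most are shown because these genes fell together and the transfected factor is a forkhead protein. They come from RefSeq on GRCh38.p14, 5′ to 3′ on the strand of the gene. Capitals mark TAAACA, a form of the forkhead core, or its reverse complement TGTTTA. The search covered both strands of windows from 250 bases before to 50 after each start. It took exact matches only, so variants of the forkhead core were not searched.
SPDEF, chr6:34556330-34556579, minus strand: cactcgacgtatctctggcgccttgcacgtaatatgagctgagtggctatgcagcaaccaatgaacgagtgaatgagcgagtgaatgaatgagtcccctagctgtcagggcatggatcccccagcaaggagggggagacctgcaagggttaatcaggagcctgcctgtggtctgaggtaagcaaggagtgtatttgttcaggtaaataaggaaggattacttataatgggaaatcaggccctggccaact
FOXA1, chr14:37595250-37595499, minus strand: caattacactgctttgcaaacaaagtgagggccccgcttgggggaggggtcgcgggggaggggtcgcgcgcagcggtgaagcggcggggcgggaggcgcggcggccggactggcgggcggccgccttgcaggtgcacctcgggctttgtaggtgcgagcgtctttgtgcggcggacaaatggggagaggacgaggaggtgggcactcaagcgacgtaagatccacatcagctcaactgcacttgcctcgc
EHF, first start, chr11:34624007-34624256, plus strand: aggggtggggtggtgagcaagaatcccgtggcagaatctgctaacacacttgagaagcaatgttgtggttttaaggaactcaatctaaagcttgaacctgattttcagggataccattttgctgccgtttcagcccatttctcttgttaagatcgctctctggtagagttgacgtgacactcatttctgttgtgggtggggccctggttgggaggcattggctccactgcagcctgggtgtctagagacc
EHF, downstream start, chr11:34632316-34632565, plus strand: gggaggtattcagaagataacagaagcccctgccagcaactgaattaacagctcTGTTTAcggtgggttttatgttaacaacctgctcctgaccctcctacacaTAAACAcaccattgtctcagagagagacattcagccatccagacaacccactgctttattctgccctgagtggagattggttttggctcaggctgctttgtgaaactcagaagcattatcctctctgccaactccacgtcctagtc
The single SPDEF and FOXA1 windows and the first EHF window held no match to these letters. The downstream EHF window held 2, which began 196 and 146 bases before its start, and the first of them also matched the longer GTAAACA in reverse complement (TGTTTAC). Of all 35116 promoter windows 12.3% held TAAACA and 3.42% held GTAAACA, which contains it. Of 22 windows listed for 8 of the 9 factors 5 held TAAACA, 2 of ESR1, 2 of GATA3 and 1 of EHF. A match is a description of the letters only.

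The other 5 factors did not pass the test. XBP1 was the brightest of them, with 3361 and 3376 in vector cells and 3315 and 3098 in FOXC1 cells. Its FOXC1 arrays lay just below the vector arrays, with a log2 difference of -0.07 ± 0.04 SE (adjusted p = 0.172) and a 95% confidence interval of the fold from 0.901 to 1.01. It passed, lower, without FOXC1 replicate 1 (log2 -0.12, adjusted p = 0.0167). The array reports the gene and not its spliced form, so XBP1 splicing was not measured.

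ESR1 read 245.4 and 245.6 in vector cells and 261 and 273 in FOXC1 cells. The FOXC1 arrays were slightly higher without overlap, as for 37.1% of all genes, and the difference did not pass (log2 0.11 ± 0.09 SE, adjusted p = 0.398; interval of the fold from 0.946 to 1.24). This probe set is annotated to a single mRNA record, while the dimmer ESR1 probe set lists the RefSeq transcripts. The dimmer one read 123 and 122 in vector cells and 113 and 143 in FOXC1 cells, with overlap (log2 0.05 ± 0.12 SE, adjusted p = 0.799). PGR, the progesterone receptor, read 96.8 and 89.8 against 107 and 96.8, with groups that met (interval of the fold from 0.905 to 1.29). Both receptors were dim, and neither differed beyond the error of 2 arrays per group.

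ELF3, the epithelial ETS factor related to EHF, read 159 and 151 in vector cells and 149.5 and 176 in FOXC1 cells, and the groups overlapped (log2 0.06 ± 0.11 SE, adjusted p = 0.729; interval of the fold from 0.888 to 1.23). GRHL2 read 131 and 123 against 135 and 139, slightly higher without overlap but not past the test (log2 0.10 ± 0.11 SE, adjusted p = 0.547; interval of the fold from 0.912 to 1.26). These intervals are of the signal, which was dim in both groups. Over the 9 factors the FOXC1 arrays lay wholly below the vector arrays in 5 (26.4% of all genes) and wholly above in 2 (37.1% of all genes).

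**Figure D2:**
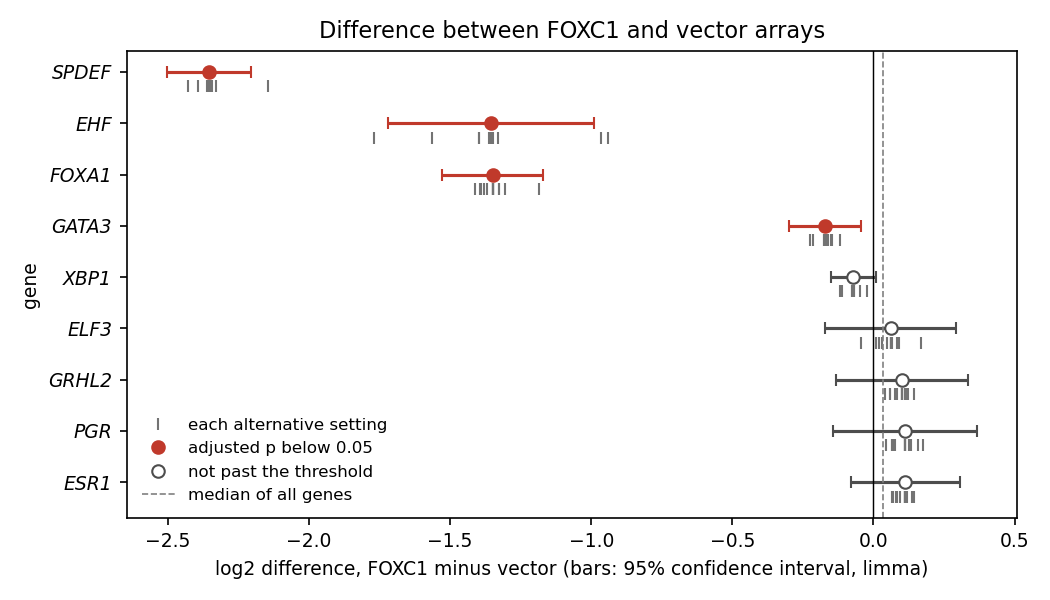
Log2 difference (FOXC1 minus vector) of each factor with its 95% confidence interval from limma; ticks below each point show the alternative settings, and the dashed line is the median of all genes, 0.03. SPDEF, EHF and FOXA1 stand well left of 0 under every setting drawn, GATA3 stands just left, and the intervals of the other 5 include 0.

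How far a fall could be seen depends on brightness. Olfactory receptor genes, which breast cells are not known to use, had a median signal of 111 over 360 probe sets and a 95th percentile of 381, and served as a guide to the dim end. Probe sets differ in their own brightness, so this sets no transcript level. The vector signals of SPDEF, GATA3 and XBP1 lay above every olfactory probe set, and that of FOXA1 above 98.6% of them. In FOXC1 cells SPDEF lay above 82.2% and FOXA1 above 80.3%. EHF stood above 78.6% of them in vector cells and above 16.9% in FOXC1 cells. The EHF vector signal thus already lay below the 95th percentile of olfactory probe sets. The lower ends of the SPDEF, FOXA1 and EHF falls were near the dim end, where folds depend on the offset. With offsets of 1 and 64 they were 5.38-fold and 4.43-fold for SPDEF, 2.66-fold and 2.27-fold for FOXA1, and 2.96-fold and 1.95-fold for EHF. ESR1, ELF3, GRHL2 and PGR stood between 40.0% and 87.2% in both groups, so a loss from an already dim signal may have gone unseen. Of the 360 olfactory probe sets 4 were called lower and 12 higher, their lowest log2 difference was -0.48, and 0 changed 2-fold in either direction.

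Among genes beside SPDEF and EHF on the chromosome, calls ran both ways. Within 1 megabase (Mb) of the SPDEF start, on chromosome 6, 1 of 26 genes was lower and 5 were higher, with a median log2 difference of 0.08. The nearest, ILRUN (log2 -0.06), PACSIN1 (0.12) and SNRPC (0.10), were not past the threshold. Within 1 Mb of EHF, on chromosome 11, 3 of 14 genes were lower and 3 higher. ELF5, an epithelial ETS factor whose gene is the nearest to EHF, read 248 and 245 in vector cells and 264 and 298 in FOXC1 cells (log2 0.18, adjusted p = 0.173). The catalase gene CAT, next in distance, fell (log2 -0.54, adjusted p = 1.29e-10), and APIP, the next one after it, did not pass (-0.07). In a window of 5 Mb, chosen after seeing the data, 26 of 195 genes around SPDEF were lower and 26 higher. Around EHF 6 of 43 were lower and 9 higher. The share of lower genes was in both windows below the 15.5% of all genes. The 2 of the 195 that fell further than SPDEF were HLA-DPA1 (log2 -2.61) and HLA-DPB1 (-2.49), which encode chains of a class II antigen presenting molecule. The class II region genes HLA-DRB5 (log2 -1.59), HLA-DMB (-1.43) and HLA-DMA (-1.31) also fell within the 5 Mb. HLA-DQA1, HLA-DQB1, HLA-DOA and HLA-DOB did not pass.

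FOXA1 lies on chromosome 14 in a wider region with many small falls. Its closest genes TTC6 (log2 -0.19), MIPOL1 (-0.01) and SSTR1 (0.07) did not pass. Within 1 Mb 1 of 6 genes was lower, the developmental factor PAX9, which read 287 and 320 in vector cells and 110.0 and 128 in FOXC1 cells (log2 -1.24, adjusted p = 8.79e-09). Within 5 Mb 19 of 34 genes were lower and 0 higher, or 55.9% against 15.5% of all genes, with a median log2 difference of -0.17. None of those 34 fell as far as FOXA1. The part of this region in the fall of FOXA1 was not tested. Around GATA3, on chromosome 10, 0 of 7 genes within 1 Mb were called in either direction, among them its antisense transcript GATA3-AS1 (log2 0.15, adjusted p = 0.187), TAF3 (0.04) and ATP5F1C (-0.01). Within 5 Mb of GATA3 13 of 44 genes, or 29.5%, were lower and 3 higher. Among all 44, called or not, 12 had a log2 difference at least as low as that of GATA3.

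**Figure D3:**
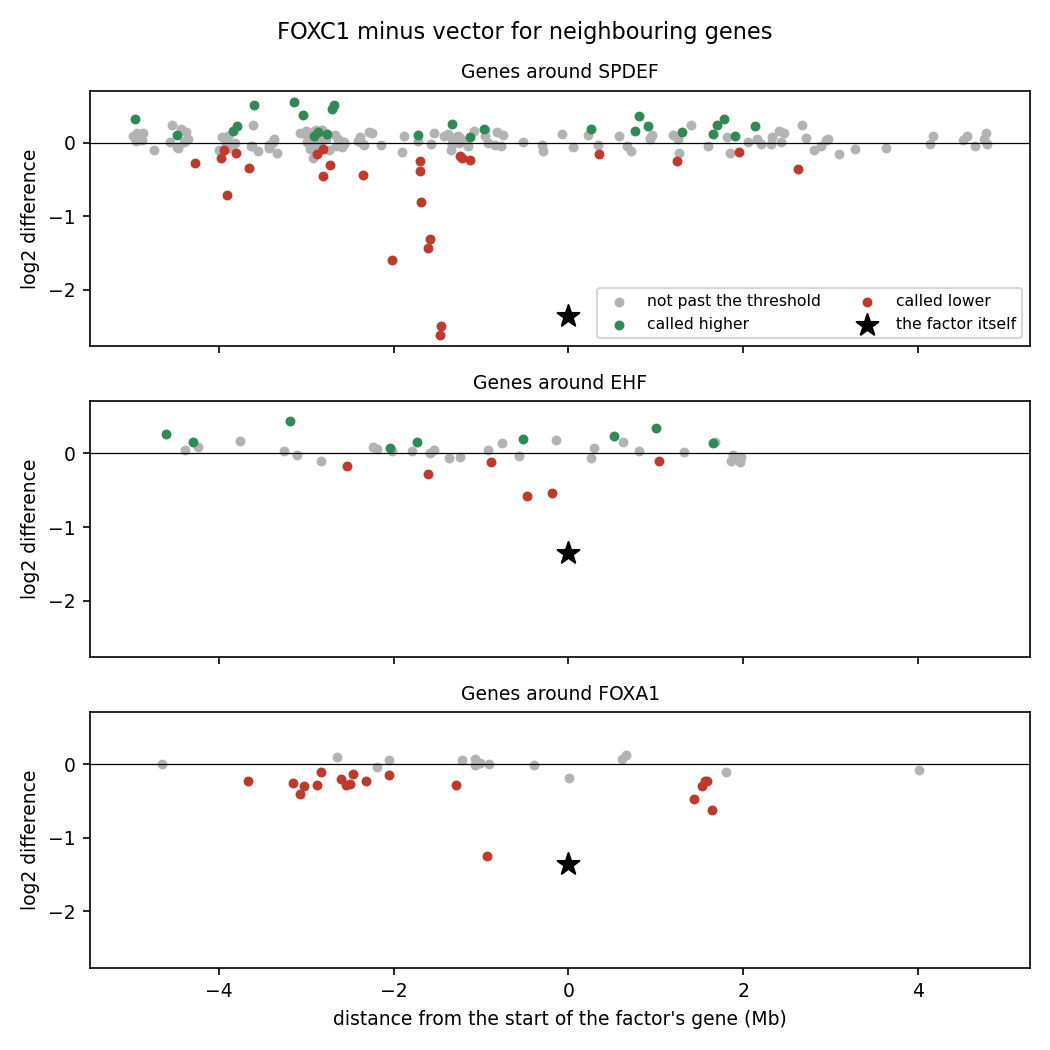
Log2 difference (FOXC1 minus vector) of genes within 5 Mb of SPDEF, EHF and FOXA1 against the distance in Mb from the start of the factor's gene; colours give the limma call and the star is the factor. FOXA1 has 19 of 34 neighbours called lower, most by small amounts, while calls around SPDEF and EHF run both ways.

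The genes whose 4 array values were most like those of SPDEF, by the distance between log2 profiles centred on their own mean, were the integrin chain ITGB4, the metalloproteinase ADAMTS12 and HLA-DPB1. ITGB4 read 1468 and 1414 in vector cells and 251 and 265 in FOXC1 cells. The distances were 0.09 for ITGB4, 0.13 for ADAMTS12 and 0.16 for HLA-DPB1 on the log2 scale. With 4 arrays in 2 groups this likeness says mainly that the falls were of similar size.

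Relatives and other factors of epithelial fate changed in both directions. Of 29 measured relatives of the 9 factors 3 fell and 5 rose, where 15.5% of all genes were lower and 15.9% higher. The median log2 difference of these relatives was 0.07. The Grainyhead family member TFCP2L1 fell 1.45-fold (616 ± 13.7 in vector cells against 419.8 ± 0.35, SD, n = 2 each), and the ETS factor ELF1 and the FOXA1 paralogue FOXA2 fell 1.25-fold and 1.20-fold. ELF4, another ETS factor, rose 1.25-fold, the GATA3 paralogues GATA2 and GATA6 rose 1.21-fold and 1.17-fold, and the receptors ESRRA (1.20-fold) and NR3C2 rose. The NR3C2 call was lost without vector replicate 1, vector replicate 2 or FOXC1 replicate 1. FOXA2 had the same direction as FOXA1, and GATA2 and GATA6 the opposite one to GATA3. Of 13 measured other epithelial factors BHLHE41 (1.81-fold) and KLF4 (1.24-fold) fell and TFAP2A (1.16-fold) rose, the last not past the threshold without vector replicate 2. OVOL2, a repressor of mesenchymal genes, KLF5 and TFAP2C did not pass, with log2 differences of 0.08, 0.06 and -0.09.

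Genes that respond to the oestrogen receptor were mixed. Of 21 measured 4 fell and 3 rose, with a median log2 difference of -0.04, where 15.5% of all genes were lower and 15.9% higher. The carbonic anhydrase CA12 fell 1.43-fold, the growth factor binding protein IGFBP4 1.34-fold, the transcription factor MYB 1.25-fold and the insulin receptor substrate IRS1 1.12-fold. The survival gene BCL2 rose 1.66-fold, from 1059 and 1051 to 1773 and 1754, the receptor IGF1R 1.19-fold and the channel KCNK15 1.13-fold. The calls of MYB and IRS1 were lost without vector replicate 1, and that of KCNK15 without either vector array or FOXC1 replicate 2. The classical targets TFF1 (log2 0.11) and GREB1 (0.09) were dim and did not pass.

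The luminal breast genes that passed were lower, by small amounts. Of 19 measured 5 fell and 0 rose (6 and 0 at an unadjusted p of 0.05 in limma). The shares over all genes were 15.5% lower and 15.9% higher. MLPH fell 1.33-fold, the luminal keratins KRT8, KRT19 and KRT18 fell 1.21-fold, 1.18-fold and 1.16-fold, and the mucin MUC1 fell 1.19-fold. KRT8 read 8876 and 9449 in vector cells against 7576 and 7545, so these keratins remained bright. The MUC1 call was lost without vector replicate 1 or FOXC1 replicate 2. Of 15 secretory genes linked to SPDEF only CREB3L1, a membrane-bound transcription factor of secretory cells, fell (1.51-fold, adjusted p = 1.67e-08), from 1373 and 1397 to 920 and 906. TFF2 and PIGR rose 1.18-fold and 1.17-fold, near the threshold (adjusted p = 0.0403 and 0.05), and each call was lost without either vector array or FOXC1 replicate 2. AGR2, a known SPDEF target, was dim and did not pass (log2 -0.02), and TFF3 did not pass either (0.09). CREB3L1 was the 1 gene of the 15 brighter than the median probe set, and 6 of the 15 lay below the 95th percentile of olfactory probe sets.

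Junction and surface genes linked to GRHL2, ELF3 and EHF held the largest fall of the linked lists, in CLDN4. Of 21 measured 7 fell and 2 rose, against 15.5% of all genes lower and 15.9% higher, although the median log2 difference was 0.07. The claudin CLDN4 read 703 and 671 in vector cells and 36.1 and 39.8 in FOXC1 cells, a fall of 13.0-fold that was 17.7-fold with an offset of 1 and 7.37-fold with an offset of 64. Its FOXC1 signal was below the olfactory median of 111, so the size of this fall rests on the offset. CLDN7 fell 3.02-fold from 2287 and 2254 to 788 and 699. The protease inhibitor SPINT2 fell 1.53-fold and the adhesion molecule EPCAM 1.49-fold, and JUP, DSP and SPINT1 also fell. The SPINT1 call was lost without vector replicate 1 or FOXC1 replicate 1. MAL2 and CLDN3 rose, with the MAL2 call lost without vector replicate 2 and the CLDN3 call lost without vector replicate 1 or FOXC1 replicate 2. E-cadherin, CDH1, was at 270 and 277 against 273 and 287 and did not pass (log2 0.03). The epithelial trafficking gene RAB25, at 84.6 to 112 over the 4 arrays, did not pass either. Both were dim, below the olfactory 95th percentile of 381, so a loss may have gone unseen.

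The XBP1 branch of the unfolded protein response, listed here together with ATF6, the sensor of a separate branch, was bright and mixed. Of 21 measured 7 fell and 5 rose, with a median log2 difference near 0, against 15.5% of all genes lower and 15.9% higher. The endoplasmic reticulum membrane protein WFS1 fell 1.63-fold from 2333 and 2217 to 1433 and 1351, the chaperone HYOU1 1.30-fold, the co-chaperone DNAJC3 1.19-fold and EDEM1, which sends misfolded proteins to degradation, 1.17-fold. The 5 rises were ERN1, the kinase that splices XBP1 RNA (1.14-fold), SSR3 (1.11-fold), ATF6, SPCS3 and SEC61A1, and the SPCS3 call was lost without vector replicate 2. Cofactors of steroid receptors, GATA3 and FOXA1 fell in 7 of 15 and rose in 0 (also 7 and 0 at an unadjusted p of 0.05 in limma), with a median log2 difference of -0.03. The adaptor LMO4 fell 1.26-fold, the corepressor TLE3 1.20-fold, the coactivator NCOA2 1.19-fold and CITED1 1.16-fold, the last not past the threshold without vector replicate 1 or vector replicate 2.

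**Figure D4:**
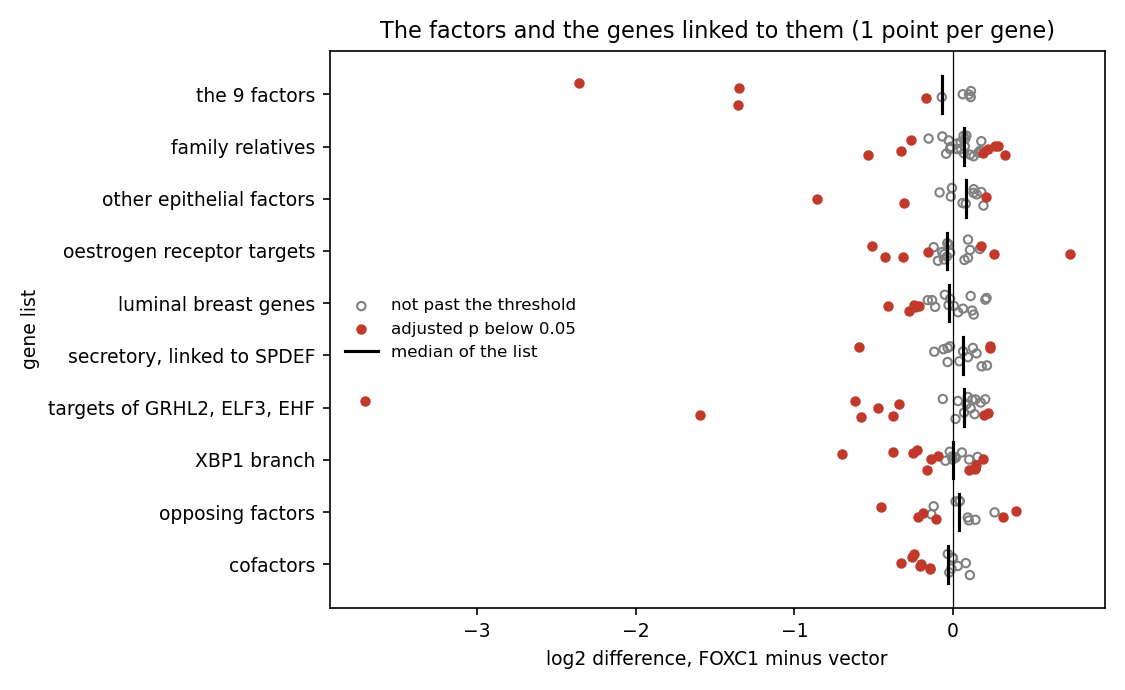
Log2 difference (FOXC1 minus vector) of each measured gene in the lists linked to the factors, filled where limma called it, with list medians as bars. All 10 list medians lie between -0.07 and 0.08, while CLDN4, SPDEF, CLDN7, EHF and FOXA1 lie furthest to the left.

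Over all genes limma called 2852 lower and 2925 higher. Centring each array on its median over all probe sets, chosen after seeing the data, made this 3396 and 1739, with the same count of 4 factors lower and 0 higher. The median signal was 492 and 489 on the vector arrays and 499 and 512 on the FOXC1 arrays. Markers chosen for the cell line were bright, since all 8 measured basal-mesenchymal markers exceeded 95% of olfactory probe sets, with VIM the brightest. Their summed signal was 74585 and 75189 in vector cells and 71437 or less in FOXC1 cells, with 5 lower and 2 higher. Luminal markers, each of which also stands in the lists above, were lower in 5 of 9 and higher in 0. Their summed signals were 25273 and 25654 against 21695 and 21381. Beside these marker counts and those below, 15.5% of all genes were lower and 15.9% higher. Of other cell types 1 of 8 leukocyte markers was called (PTPRC higher, at 62.6 to 93.9 and so below the olfactory median). PECAM1 and TIE1 were lower among 7 endothelial markers, and DCN was higher among 7 fibroblast markers. Leukocyte sums ran from 2897 to 3131, endothelial sums from 3673 to 4444 and fibroblast sums from 2090.2 to 2258, and 0 of these markers were listed at 0. The part of any of these shifts in the falls of the factors was not tested.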

How the data were processed

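Expression was measured on 4 Affymetrix gene arrays, 2 vector and 2 FOXC1, grouped by the labels. Per the labels, the authors summarised probes at gene level with PLIER in Affymetrix Expression Console, and deposited the resulting linear intensity. The normalization options and software versions were not given in the sources used here. PLIER signals near 0 make log ratios unstable, so 16 was added before log2, which shrinks folds of dim genes. Of 33297 probe sets 21214 carried a gene symbol, 19460 of them 1 symbol and 1754 several, while 12083 without a symbol were left out. Platform annotation named the probe sets. A linear model (limma 3.58.1 under R 4.3.3, eBayes with a trend, two-sided; 2 residual and 18.1 prior degrees of freedom) was fitted to all 21214, with Benjamini-Hochberg adjustment and calls at 0.05. Genes were then represented by their brightest probe set with 1 symbol, 18417 in all. The fit was also run on simulated data with normal noise of the spread that this same fit had estimated. That run cannot show whether the spread itself is right. The p-values measure the spread between arrays, which may not cover that between separate transfections. Arrays give no read depth, so that their number limits precision. Same-numbered arrays did not deviate together (correlation -0.01).

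The factors and lists were chosen with earlier results of these data known. Named genes are the 9 factors, up to 4 called genes per list by size of change (all where a count was 5 or fewer), the 3 profiles nearest to that of the factor with the largest change, and the 3 nearest neighbours of each called factor. Others, such as PAX9, HLA-DPA1 and list genes that did not pass, were named after their values were seen. RefSeq tables of GRCh38.p14 placed 18386 genes for the neighbour comparison, and promoters matched 8 of the 9 factors by symbol. The alternatives were offsets of 1 and 64, brightness filters, quantile normalization, median centring, other variance moderation, a replicate block, each array left out, probe sets averaged per gene, and all probe sets.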

Additional observations from a re-analysis of the deposited data

How the results depend on the processing

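SPDEF, FOXA1 and EHF kept direction and call under every alternative in which they were tested. Their log2 differences ran from -2.43 to -2.15, -1.41 to -1.18 and -1.77 to -0.94. Without a variance trend their adjusted p in limma rose to 1.53e-04, 5.99e-04 and 0.0368, the last near the threshold. Neither brightness filter kept EHF. GATA3 lost its call in 7 of 16 settings, with log2 differences from -0.22 to -0.12. XBP1 gained a call in 1 of 16, and ELF3, which ran from -0.045 to 0.17 with an array left out, turned negative without FOXC1 replicate 2 (adjusted p = 0.854). ESR1, PGR and GRHL2 stayed positive and uncalled. The count of factors lower was 1 above the 50th percentile of signal, where only GATA3 and XBP1 were tested, ran from 3 to 5 with an array left out, and the count higher was 0 throughout. With the replicate block it was 4, and 3099 genes were lower and 3339 higher; the block changed no call among the factors. Leaving out an array gave 2059 to 3142 genes lower and 1913 to 2951 higher, the lowest count higher coming without vector replicate 2. Without a variance trend 1790 were lower and 1461 higher, all probe sets gave 1858 higher and centring over all probe sets gave 1739 higher; the causes were not tested. Among lists, outside the brightness filters, calls lower ran from 2 to 6 for oestrogen receptor targets and from 4 to 8 for the XBP1 branch, whose calls higher ran from 0 to 6. Calls higher ran from 2 to 5 for oestrogen receptor targets and from 0 to 4 for the junction list. For secretory genes they ran from 0 to 2, for luminal breast genes and for other epithelial factors from 0 to 1. Basal-mesenchymal markers were lower in 3 to 5 and higher in 1 to 2, endothelial markers lower in 1 to 2 and leukocyte markers higher in 1 to 2.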

Other observations

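Factors that oppose epithelial fate were called in both directions. Of 15 measured 4 fell and 2 rose, with a median log2 difference of 0.04, where 15.5% of all genes were lower and 15.9% higher. FOXQ1, a forkhead factor, fell 1.37-fold from 2021 and 2095 in vector cells to 1507 and 1492 in FOXC1 cells. SOX9, ZEB1 and SNAI2 fell 1.16-fold, 1.14-fold and 1.08-fold, each remaining bright, as with ZEB1 at 4665 and 4858 against 4216 and 4124. KLF8 rose 1.32-fold from a dim 103 and 104 to 143 and 139, and PRRX1 rose 1.24-fold. The calls of PRRX1 and KLF8 were lost without FOXC1 replicate 1, that of PRRX1 also without vector replicate 1, and that of SNAI2 without vector replicate 2. Over the alternatives outside the brightness filters 2 to 4 of these genes were called lower and 1 to 4 higher.

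The endothelial adhesion molecule PECAM1 read 719 and 914 in vector cells and 249 and 245 in FOXC1 cells, a fall of 3.15-fold in its brightest probe set (adjusted p = 9.6e-12). With all its probe sets averaged the fall was 1.66-fold (adjusted p = 5.1e-05), so its probe sets disagree in size, and the endothelial cadherin CDH5 did not pass (log2 -0.02).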
